A study of Mus musculus with 19 samples.

Results

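Glycolysis and the traffic of its fuel and product were followed through 31 genes in mouse medial prefrontal cortex. The genes were chosen by name. They are glucose transporters, the enzymes of each step down to lactate, lactate transporters, the PFKFB and pyruvate dehydrogenase kinases that set the flux, and the transcription factor gene Hif1a. The names matched 32 of 57010 rows of the deposited count table, because Aldoa has a second row, and all 32 were among the 17757 rows tested. Messenger RNA of whole tissue was sequenced from 19 libraries in 4 groups. Co-treated mice (5 libraries) were given sedanolide, a phthalide of celery seed oil, at 20 mg/kg by gavage for 8 days and bacterial lipopolysaccharide (LPS) at 1 mg/kg by intraperitoneal injection for 5 days, the gavage leading the injections by 3 days. LPS mice (5 libraries) had the same injections with saline by gavage. Sedanolide mice (5 libraries) had the same gavage with injected saline, and control mice (4 libraries) had saline by both routes. All were WT, and the labels used here give no strain, sex or age. The study's title names glycolysis in microglia, and these libraries hold the RNA of every cell type in the tissue.

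Cells take up glucose through facilitative transporters, trap it as a phosphate with a hexokinase, and split and oxidise it to pyruvate. Lactate dehydrogenase interconverts pyruvate and lactate, which crosses membranes on monocarboxylate transporters, while pyruvate dehydrogenase kinases hold pyruvate back from the mitochondria. In brain, SLC2A1 (GLUT1) carries glucose across the blood-brain barrier endothelium and into glia, and SLC2A3 (GLUT3) serves neurons. Hypoxia-inducible factor induces many genes of the pathway in other settings and binds a core element of DNA with the letters ACGTG.

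Levels below are CPM, read counts per M (mega) of the library total after trimmed-mean (TMM) scaling, with libraries in the order of their replicate numbers (1, 2, 4 and 5 in controls). Each change is a log2 fold change with its standard error (SE) from edgeR's quasi-likelihood test, and a gene was called at a Benjamini-Hochberg adjusted p below 0.05 over all rows tested. Library totals were 19.08 to 24.32 M counts. The summed level of 5 markers of cortical excitatory neurons was 6238 to 7050.1 CPM in co-treated, 4837 to 7307 in LPS, 5219 to 8057 in sedanolide and 2574 to 6415 in control libraries, with none of the 5 at 0. Of the 19 libraries, 7 carried olfactory bulb transcripts, taken as Cdhr1 above 20 CPM. These were LPS replicates 2, 3 and 4, sedanolide replicates 3 and 4 and control replicates 1 and 5, and none was co-treated. The other 12 libraries are called bulb-poor (5 co-treated, 2 LPS, 3 sedanolide and 2 control), and results that change in them are given with their value there. Co-treated replicate 5 also stood apart, with 5.5% of its counts in mitochondrial genes, against 9.98 to 11.8% in the other co-treated libraries. Bulk counts cannot tell a change in the number of cells of a type from a change in RNA per cell.

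LPS raised 6 of the 32 member rows and lowered none against control. Among all rows tested 8.47% were called higher and 2.44% lower. The 6 were the endothelial and glial glucose transporter Slc2a1, the hexokinases Hk2 and Hk3, the regulator Pfkfb3, and the lactate transporters Slc16a1 and Slc16a3. The enzymes from glucose phosphate isomerase to lactate dehydrogenase were not called, and the median change of the 32 rows was 0.02, beside -0.00 over all rows tested. Counted at an unadjusted p below 0.05 in edgeR, 7 member rows were higher and 1 was lower, and DESeq2 and limma-voom each called 1 lower, Pfkfb2.

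**Figure D1:**
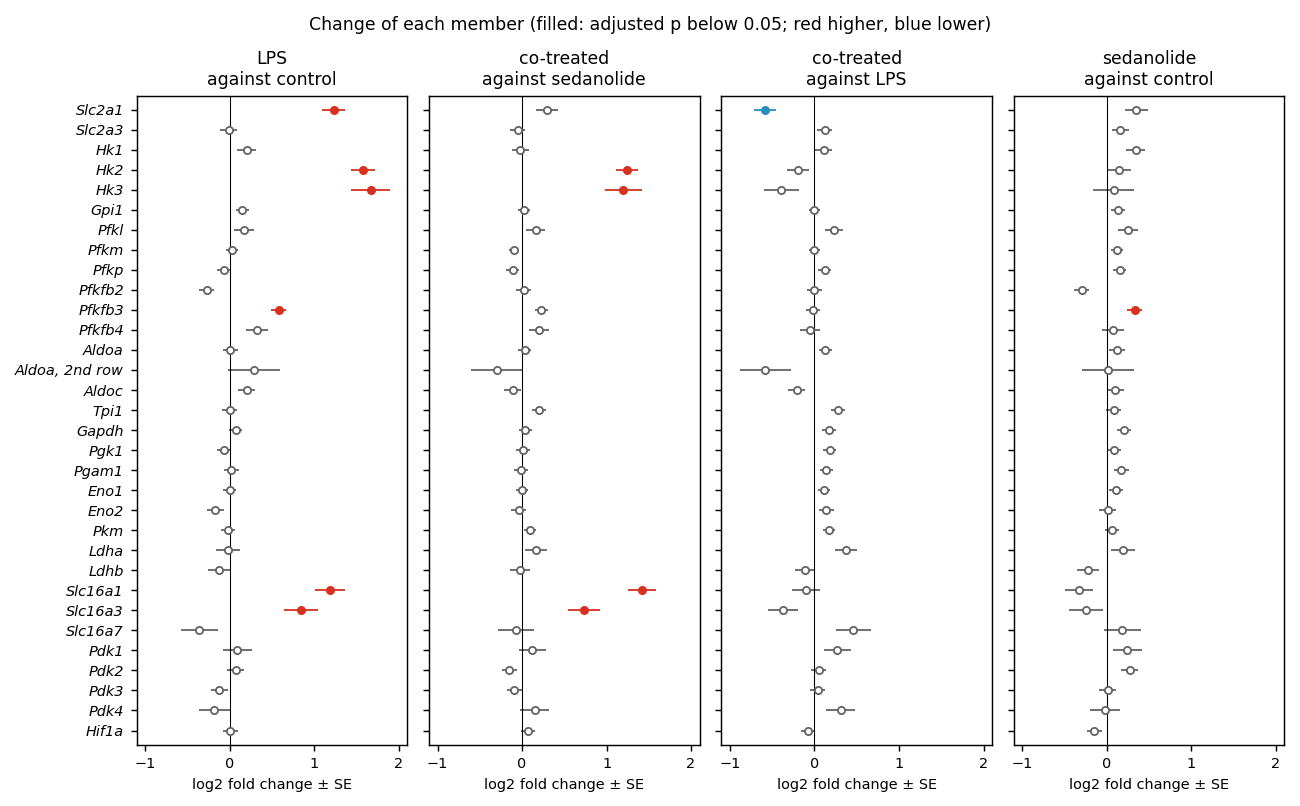
Log2 fold change (x axis, bars are SE) of each member row (y axis, in pathway order) in 4 comparisons; filled points passed an adjusted p of 0.05. The filled points with LPS are Slc2a1, Hk2, Hk3, Pfkfb3, Slc16a1 and Slc16a3, and Slc2a1 is the only filled point in the comparison of co-treated with LPS mice.

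Reference promoters of these 6 genes are shown because they were called higher with LPS and each holds the HIF core letters ACGTG in the 250 bases before its start. They are RefSeq sequences on build GRCm38.p6, printed 5′ to 3′ on the gene's strand, with ACGTG or its reverse complement CACGT in capitals; a run CACGTG is both at once. Slc2a1 lies at chr4:119108495-119108744 on the plus strand. Hk2 lies at chr6:82774455-82774704 on the minus strand, and Hk3 at chr13:55021386-55021635 on the minus strand. The first of the listed Pfkfb3 promoters lies at chr2:11553930-11554179 on the minus strand. Slc16a1 lies at chr3:104638414-104638663 and Slc16a3 at chr11:120948817-120949066, both on the plus strand.
Slc2a1: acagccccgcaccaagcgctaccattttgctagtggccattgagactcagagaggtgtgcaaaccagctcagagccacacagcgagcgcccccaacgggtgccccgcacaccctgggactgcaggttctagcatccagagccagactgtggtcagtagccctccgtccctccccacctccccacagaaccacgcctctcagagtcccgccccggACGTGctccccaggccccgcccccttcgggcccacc
Hk2: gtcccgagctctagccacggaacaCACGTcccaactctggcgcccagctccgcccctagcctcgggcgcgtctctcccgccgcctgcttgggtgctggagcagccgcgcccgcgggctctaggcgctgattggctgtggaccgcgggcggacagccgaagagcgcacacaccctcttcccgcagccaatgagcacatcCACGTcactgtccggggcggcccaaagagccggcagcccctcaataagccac
Hk3: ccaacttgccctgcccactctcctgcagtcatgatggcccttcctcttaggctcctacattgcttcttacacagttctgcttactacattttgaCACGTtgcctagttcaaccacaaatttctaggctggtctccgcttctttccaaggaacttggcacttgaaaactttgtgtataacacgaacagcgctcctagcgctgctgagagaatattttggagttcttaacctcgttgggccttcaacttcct
Pfkfb3: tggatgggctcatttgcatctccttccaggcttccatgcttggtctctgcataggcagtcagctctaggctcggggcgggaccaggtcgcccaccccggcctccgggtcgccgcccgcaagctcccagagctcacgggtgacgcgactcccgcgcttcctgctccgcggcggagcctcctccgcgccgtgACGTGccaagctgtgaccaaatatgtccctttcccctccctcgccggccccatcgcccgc
Slc16a1: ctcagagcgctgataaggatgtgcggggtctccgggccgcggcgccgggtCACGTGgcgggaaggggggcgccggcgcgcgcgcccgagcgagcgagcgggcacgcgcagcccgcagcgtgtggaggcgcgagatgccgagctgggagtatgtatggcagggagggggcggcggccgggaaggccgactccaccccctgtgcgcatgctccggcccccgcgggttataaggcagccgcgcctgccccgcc
Slc16a3: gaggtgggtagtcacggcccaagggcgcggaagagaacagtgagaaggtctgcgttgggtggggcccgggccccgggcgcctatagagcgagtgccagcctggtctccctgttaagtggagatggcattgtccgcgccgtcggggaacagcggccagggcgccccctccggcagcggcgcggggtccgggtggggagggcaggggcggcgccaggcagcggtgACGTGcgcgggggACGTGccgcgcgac
RefSeq promoters were matched for 29 of the 31 genes; Slc2a3 and Slc16a7 were not matched. The letters were present on either strand, in at least 1 listed promoter, of 6 of the 6 genes called higher with LPS and of 10 of the other 23 members (43.5%). The share was 18.5% of all 27025 genes with a listed promoter. Ldha, not called with LPS, held 5 matches in the first of its listed promoters. A match of letters is a description of these windows. Binding was not measured, and the difference between these shares was not tested.

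**Figure D2:**
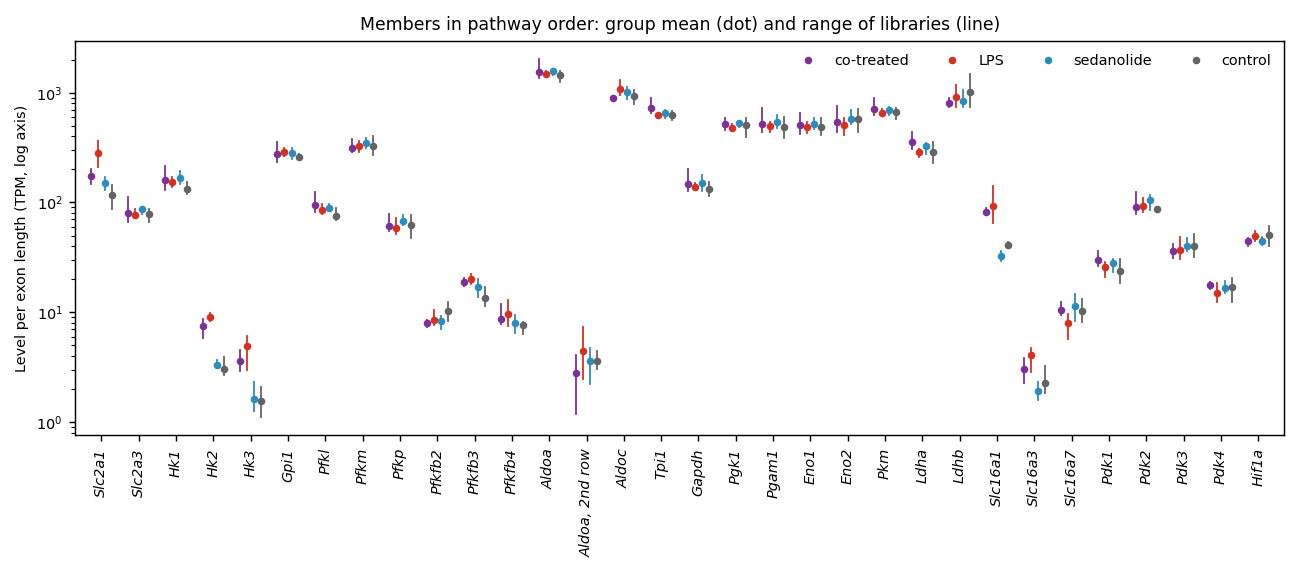
Level per exon length (TPM, log axis) of each member row; dots are group means and lines span the lowest to the highest library. Mean levels ran from 1514 TPM for Aldoa down to 2.87 TPM for Slc16a3. The groups that received LPS lie above the others for Hk2, Hk3 and Slc16a1. For Slc2a1 the LPS libraries lie above all others, while co-treated and sedanolide libraries overlap.

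Glucose entry differed by transporter. Slc2a1, on chromosome 4 from 118965908 to 118995180 on the plus strand as the deposited table gives it (its build is not given), had 188, 169, 194, 216 and 191 CPM in co-treated, 349.6, 344, 265, 246 and 241 CPM in LPS, 151, 144, 161, 167 and 162 CPM in sedanolide, and 118, 164, 95.1 and 116 CPM in control libraries. The GRCm38.p6 promoter position printed above lies past the end of this deposited interval. The deposited coordinates are therefore on another build, and the positions cannot be read together. Every LPS library lay above every library of the other groups, and every co-treated library lay above the sedanolide and control libraries. Slc2a1 rose 1.23 (SE 0.14) with LPS against control, 2.35-fold (edgeR, adjusted p = 4.34e-06). In co-treated against LPS libraries it fell by 0.59 (SE 0.13), to a mean of 192 ± 16.8 CPM in co-treated and 289 ± 53.3 CPM in LPS libraries (SD; edgeR, adjusted p = 0.0209). It was the only member row called by edgeR in that comparison, in which 1.68% of all rows were called lower and 0.287% higher. Co-treated libraries were still above control, by 0.64 (SE 0.14; edgeR, adjusted p = 0.00618). Co-treated against sedanolide gave 0.29 (SE 0.13; edgeR, adjusted p = 0.268). Without LPS, sedanolide against control gave 0.35 (SE 0.14; edgeR, adjusted p = 0.125).

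The sedanolide difference in Slc2a1 depended on LPS by the test of the interaction, which sets co-treated minus LPS against sedanolide minus control. The interaction was -0.94 (SE 0.19; edgeR, adjusted p = 0.0351), the only member row called, beside 0.372% of all rows called lower. In the bulb-poor libraries the co-treated fall was -0.61 (adjusted p = 0.222), the interaction was -0.81 (adjusted p = 0.503), and co-treated against control was 0.56 (adjusted p = 0.124), none of them called. With a per-library index of olfactory bulb marker genes as a covariate, the interaction kept its call. The co-treated fall lost it there, at -0.60 (edgeR, adjusted p = 0.052). The co-treated fall also lost its call without any 1 of LPS replicates 1 and 2 and co-treated replicates 1, 2, 3 and 5, at -0.60 to -0.52 and adjusted p of 0.0526 to 0.0723. The interaction lost it without any 1 of control replicates 4 and 5, sedanolide replicates 3, 4 and 5, LPS replicates 1 and 2, and co-treated replicates 1, 2 and 3, at -0.95 to -0.84 and adjusted p of 0.0561 to 0.0963.

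Endothelial markers moved with Slc2a1. Their summed level (10 genes, none at 0 in any group) was 501 to 657 CPM in co-treated, 697 to 865 in LPS, 402 to 476 in sedanolide and 352 to 563 in control libraries. All 10 were called higher with LPS against control, and 2 of 10, Tie1 and Esam, were called lower in co-treated against LPS libraries. Divided by that sum, Slc2a1 was 37.2 ± 3.91% in LPS and 29.1 ± 1.6% in control libraries (SD, n = 5 and 4), with no overlap (exact permutation test, two-sided, p = 0.00794, the smallest possible; 0.0238 adjusted over 15 such tests). The log2 difference of that ratio was 0.35, beside 1.23 for Slc2a1 itself. In co-treated libraries it was 32.3 ± 4.1%, against 37.2 ± 3.91% in LPS libraries, and these overlapped (exact permutation p = 0.0952, adjusted 0.119). The 32.3 ± 4.1% of co-treated libraries also overlapped the 37.2 ± 2.39% of sedanolide libraries (exact permutation p = 0.0476, adjusted 0.0794). The higher ratio was not confined to LPS. Every sedanolide library, at 33.9 to 39.8%, also lay above the control range of 27 to 30.8%, and that difference was not tested. All 10 markers rose with LPS themselves, so the ratio cannot tell cell number from RNA per cell. Of 5 pericyte markers, 4 were also called higher with LPS against control. In co-treated against LPS libraries 1 of the 5 was called lower. Among all rows 8.47% and 1.68% were so called. The part of endothelial or pericyte RNA in the Slc2a1 differences was not tested.

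The neuronal transporter Slc2a3 had 181, 157, 180.4, 164 and 223 CPM in co-treated, 162, 148, 182, 160.3 and 184 CPM in LPS, 182, 195, 175, 190.5 and 199 CPM in sedanolide, and 158, 155, 194 and 165 CPM in control libraries. The 4 groups overlapped and no comparison was called, with changes between -0.05 and 0.16. Per exon length Slc2a1 made up 68.6 ± 3.25% of the 2 transporters' summed TPM in co-treated, 77.7 ± 4.28% in LPS, 63.3 ± 1.97% in sedanolide and 59.7 ± 7.48% in control libraries (SD).

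**Figure D3:**
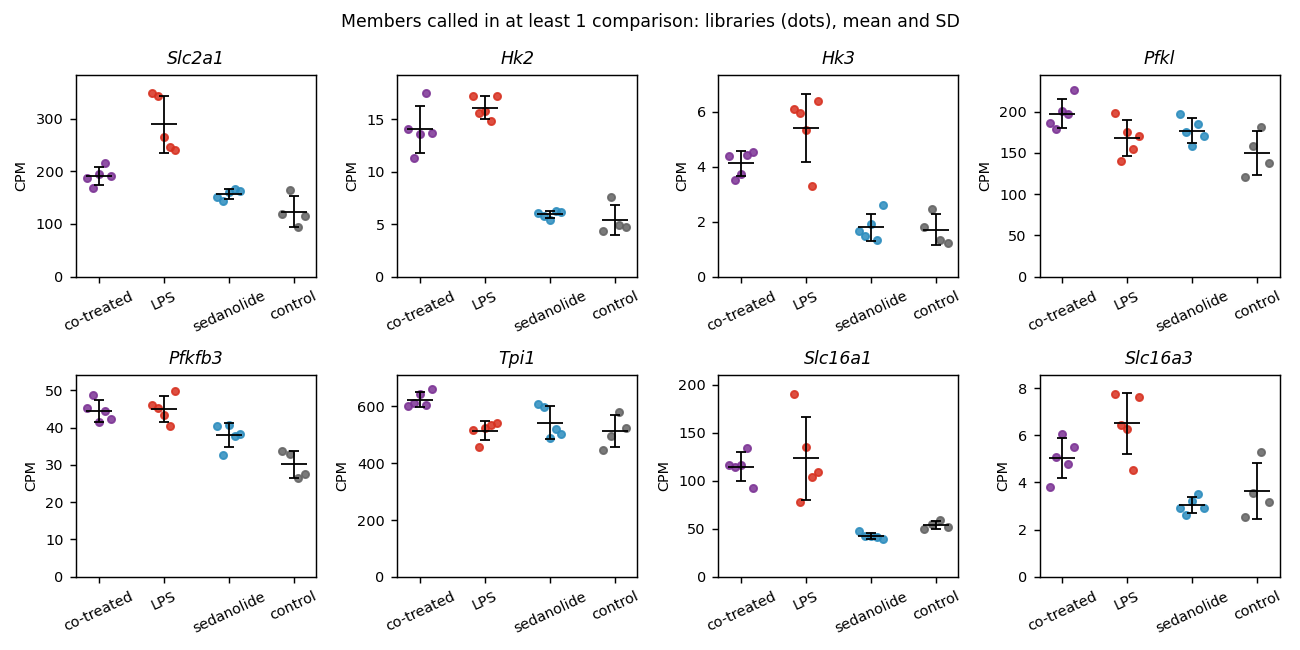
CPM in each library (dots) with group mean and SD for the 8 members called in at least 1 comparison. The LPS libraries of Slc2a1 run from 241 to 349.6 CPM, above all others, and Hk2, Hk3 and Slc16a1 are high in both groups that received LPS.

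The hexokinases, which trap glucose in the cell, held an abundant isoform without a call, Hk1, and the scarcer Hk2 and Hk3, which rose with LPS. Hk2, the insulin- and hypoxia-responsive isoform, had 14.1, 11.3, 13.6, 17.5 and 13.7 CPM in co-treated, 17.2, 15.6, 15.8, 14.8 and 17.2 CPM in LPS, 6.04, 5.82, 5.38, 6.25 and 6.17 CPM in sedanolide, and 4.36, 7.56, 4.91 and 4.76 CPM in control libraries. All co-treated and LPS libraries were above all sedanolide and control libraries. Hk2 rose 1.58 (SE 0.14) in LPS against control libraries, 2.99-fold (edgeR, adjusted p = 2.76e-07), and 1.24 (SE 0.13) in co-treated against sedanolide libraries (edgeR, adjusted p = 2.65e-06). Co-treated and LPS libraries overlapped, and their difference of -0.20 (SE 0.13) was not called (edgeR, adjusted p = 0.377).

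Hk3, an isoform of myeloid blood cells, was the least abundant hexokinase and had 4.4, 3.52, 3.72, 4.42 and 4.53 CPM in co-treated, 6.11, 5.94, 5.35, 3.28 and 6.38 CPM in LPS, 1.65, 1.47, 1.91, 1.34 and 2.6 CPM in sedanolide, and 1.81, 2.46, 1.33 and 1.21 CPM in control libraries. Again no library that received LPS overlapped one that did not. The change was 1.67 (SE 0.23) in LPS against control libraries (edgeR, adjusted p = 4.69e-05) and 1.20 (SE 0.22) in co-treated against sedanolide libraries (edgeR, adjusted p = 0.00115). Co-treated against LPS gave -0.39 (SE 0.21; edgeR, adjusted p = 0.29).

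Hk1, the main isoform of brain, had 404, 363, 413, 422 and 497 CPM in co-treated, 432, 361, 427, 348 and 381 CPM in LPS, 428, 389, 402, 472 and 442 CPM in sedanolide, and 285, 359, 406 and 304 CPM in control libraries. Its groups overlapped, and its changes of 0.20 with LPS and 0.34 with sedanolide against control were not called (edgeR, adjusted p = 0.271 and 0.0765). By TPM, Hk1 was 93.4% of the 3 hexokinases in co-treated, 91.6% in LPS, 97.1% in sedanolide and 96.6% in control libraries. The share of Hk2 was 4.48 ± 0.653% in co-treated and 5.44 ± 0.383% in LPS libraries, against 1.93 ± 0.093% in sedanolide and 2.21 ± 0.495% in control libraries (SD).

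Markers of microglia, monocytes and neutrophils were higher with LPS against control, as Hk2 and Hk3 were. The lists differed in co-treated against LPS libraries. There 0 of 8 microglial markers were called, beside 1.97% of all rows. The median change was -0.05 for microglial, -1.59 for neutrophil and -1.49 for monocyte markers. Hk2 gave -0.20 and Hk3 -0.39 there, neither of them called, and the cells that hold these transcripts were not tested. The summed level of 8 microglial markers was 907 to 1202 CPM in co-treated, 914 to 1176 in LPS, 475 to 603 in sedanolide and 375 to 594 in control libraries, and 7 of the 8 were called higher with LPS against control. Divided by it, Hk2 was 1.52 ± 0.0624% in LPS and 1.18 ± 0.069% in control libraries (exact permutation p = 0.00794, adjusted 0.0238). It was 1.37 ± 0.086% in co-treated libraries, below every LPS library (exact permutation p = 0.00794, adjusted 0.0238). The gap was narrow, with the highest co-treated library at 1.45% and the lowest LPS library at 1.46%. Hk2 itself was not called in that comparison. The co-treated ratio overlapped the 1.14 ± 0.103% of sedanolide libraries (exact permutation p = 0.0159, adjusted 0.034). The log2 difference of the Hk2 ratio between LPS and control libraries was 0.36, beside 1.58 for Hk2 itself. The part of microglial RNA in the Hk2 change was not tested.

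Of 4 monocyte markers, 4 were called higher with LPS against control and 2 lower in co-treated against LPS libraries. Among all rows these shares were 8.47% and 1.68%. The summed level of the monocyte markers was 1.77 to 3.21 CPM in co-treated, 4.98 to 9.38 in LPS, 0.4 to 0.824 in sedanolide and 1.25 to 1.5 in control libraries. The summed level of 8 neutrophil markers was 29.9 to 41.3 CPM in co-treated, 62 to 67.9 in LPS, 5.58 to 12.1 in sedanolide and 7.43 to 12.3 in control libraries. All 8 were called higher with LPS against control, and 5 were called lower in co-treated against LPS libraries. In sedanolide against control their median change was -1.26, with 0 called, beside 0.08 for Hk3. Hk3 was 8.25 ± 1.92% of that sum in LPS and 18.4 ± 6.55% in control libraries, a lower ratio with LPS (exact permutation p = 0.00794, adjusted 0.0238). Against the microglial sum Hk3 was 0.502 ± 0.0828% in LPS and 0.374 ± 0.0911% in control libraries (exact permutation p = 0.0873, adjusted 0.119). None of the 3 lists had a marker at 0 in any group, and their part in the Hk3 change was not tested.

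**Figure D4:**
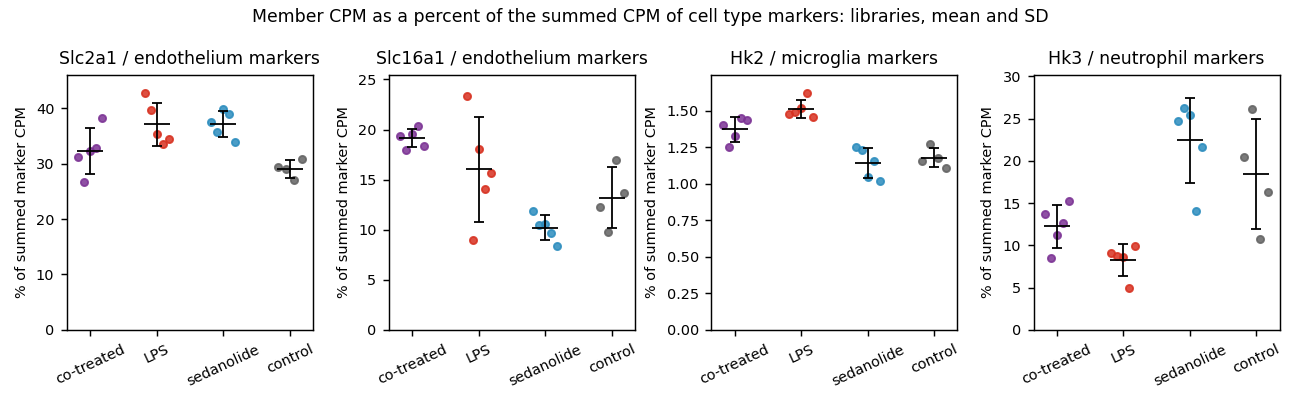
CPM of 4 members as a percent of the summed CPM of marker genes, by library (dots), with mean and SD. Slc2a1 per endothelial marker CPM is 33.5 to 42.7% in LPS, 33.9 to 39.8% in sedanolide and 27 to 30.8% in control libraries. Hk3 per neutrophil marker CPM is 4.92 to 9.88% in LPS and 10.8 to 26.2% in control libraries.

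Glucose phosphate isomerase, which makes fructose 6-phosphate, varied little. Gpi1 had 538, 492, 537, 569 and 621 CPM in co-treated, 585, 539.7, 559, 511 and 560.0 CPM in LPS, 522, 515, 542, 582 and 565 CPM in sedanolide, and 465, 504, 532 and 488 CPM in control libraries. Its groups overlapped, and its change was 0.15 (SE 0.08) with LPS against control and 0.00 (SE 0.07) in co-treated against LPS libraries (edgeR, adjusted p = 0.242 and 0.991).

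Phosphofructokinase commits the sugar to glycolysis. The muscle-type subunit gene Pfkm led it at 329 TPM over all libraries and had 306, 318, 332, 329 and 344 CPM in co-treated, 343, 322, 331, 319 and 314 CPM in LPS, 364, 347, 346, 359 and 321 CPM in sedanolide, and 352, 294, 322 and 313 CPM in control libraries. No comparison of Pfkm was called, and its largest difference between groups was 0.12, in sedanolide against control libraries. The liver-type Pfkl had 186, 179, 201, 197 and 226 CPM in co-treated, 198, 140.1, 175, 155 and 171 CPM in LPS, 197, 175, 158, 185 and 171 CPM in sedanolide, and 120.3, 158, 182 and 138 CPM in control libraries. Only 1 control library reached the co-treated range, and Pfkl was 0.40 (SE 0.12) higher in co-treated against control libraries (edgeR, adjusted p = 0.0315). That comparison called 7 member rows higher and none lower in edgeR (1 lower at an unadjusted p below 0.05), beside 6.38% of all rows called higher and 4.69% lower: Pfkl, Tpi1, Slc2a1, Hk2, Hk3, Pfkfb3 and Slc16a1. In bulb-poor libraries 4 were called and Pfkl gave 0.21 (adjusted p = 0.339). Pfkl also lost its call without any 1 of control replicates 1 and 5 and co-treated replicates 3, 4 and 5, at 0.31 to 0.40 and adjusted p of 0.0575 to 0.124. The platelet-type Pfkp spanned 205 to 283 CPM over all libraries and was not called.

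The PFKFB enzymes make and break the sugar bisphosphate that activates phosphofructokinase. Pfkfb3, the isoform of highest kinase activity, had 45.2, 48.8, 41.6, 44.4 and 42.3 CPM in co-treated, 46, 45.3, 43.3, 40.5 and 49.9 CPM in LPS, 40.5, 32.7, 40.6, 37.8 and 38.2 CPM in sedanolide, and 33.6, 32.9, 26.5 and 27.6 CPM in control libraries. Both groups that received LPS were above every control library. Pfkfb3 rose 0.58 (SE 0.09) in LPS against control (edgeR, adjusted p = 0.000112) and 0.56 (SE 0.09) in co-treated against control libraries (edgeR, adjusted p = 0.000312). It was the only member row called in sedanolide against control libraries, at 0.33 (SE 0.09; edgeR, adjusted p = 0.0365), with overlap of a single sedanolide library, and 3.2% of all rows were called higher and 2.11% lower there. That last call lay near the threshold. Pfkfb3 gave 0.29 in bulb-poor libraries (adjusted p = 0.38), and lost the call without any 1 of control replicates 4 and 5 and sedanolide replicates 1, 3, 4 and 5, at 0.28 to 0.33 and adjusted p of 0.0576 to 0.148. Co-treated against LPS gave -0.02 (SE 0.08), and co-treated against sedanolide 0.23 (SE 0.08; edgeR, adjusted p = 0.14).

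Pfkfb2 moved the other way without a call. It had 16.9, 18.1, 19.8, 19.5 and 16.5 CPM in co-treated, 18, 20.5, 16.2, 16.4 and 19.7 CPM in LPS, 18.2, 19.2, 18.1, 18 and 15.7 CPM in sedanolide, and 23.6, 19.4, 20.4 and 24.3 CPM in control libraries. All sedanolide libraries were below all control libraries, and the differences from control were -0.27 with LPS, -0.30 with sedanolide and -0.27 in co-treated libraries (edgeR, adjusted p = 0.0736, 0.0677 and 0.0661). Those 3 comparisons share the control libraries, and in each of them DESeq2 and limma-voom called Pfkfb2 lower. Pfkfb4, an isoform first described in testis, spanned 9.31 to 16.8 CPM and was not called. By TPM, Pfkfb3 was 52.9 ± 2.6% of the 3 PFKFB genes in co-treated, 52.9 ± 2.64% in LPS, 50.9 ± 2.37% in sedanolide and 42.9 ± 3.05% in control libraries (SD).

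**Figure D5:**
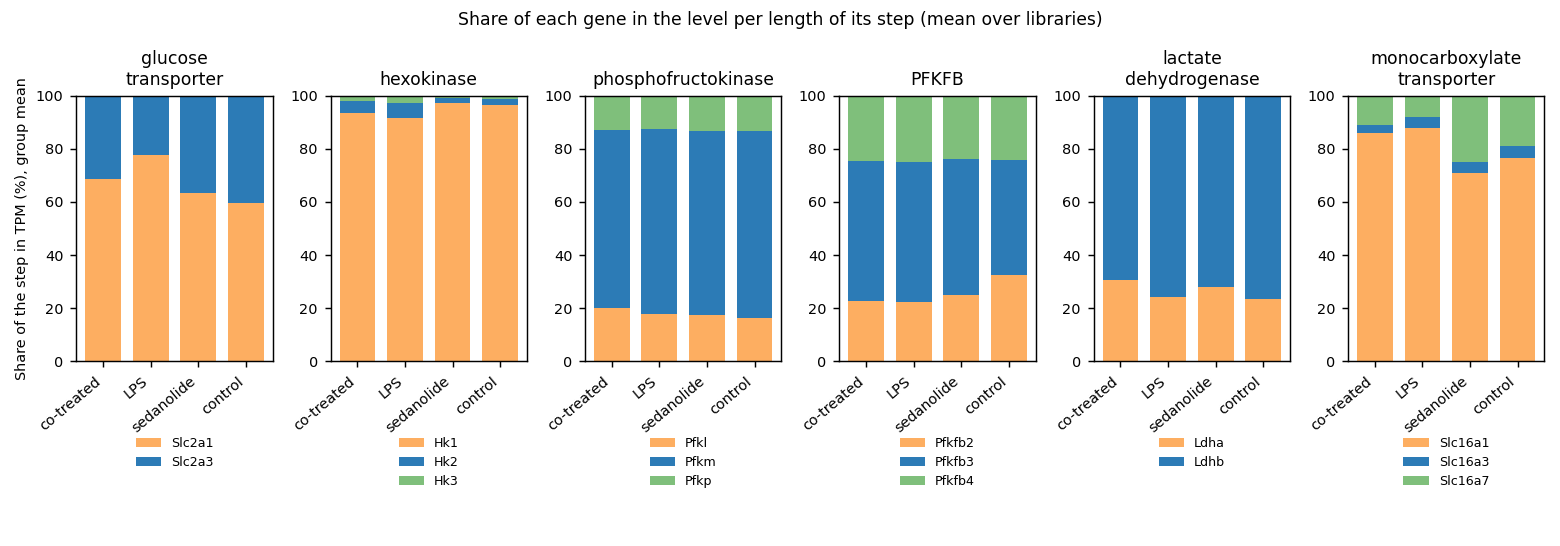
Share of each gene in the summed TPM of its step (%, group means, stacked to the whole). Hk1 stays above 90% of hexokinase in all 4 groups while Hk2 and Hk3 widen with LPS; Slc2a1 holds 77.7% of its step in LPS and 59.7% in control libraries.

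The steps from aldolase to pyruvate kinase held the most abundant members and 1 call. Aldoa, which splits the sugar into triose phosphates, had 1333, 1277, 1419.7, 1335 and 1610.0 CPM in co-treated, 1279, 1127, 1331, 1303 and 1329 CPM in LPS, 1479, 1399.8, 1281, 1384 and 1296 CPM in sedanolide, and 1196, 1168, 1397 and 1286 CPM in control libraries. Its groups overlapped, and its changes lay between 0.01 and 0.14 in the 5 comparisons of groups. The second Aldoa row, with 368 counts over all libraries, had at most 1.69 CPM in any library. The astrocytic Aldoc spanned 792 to 1161 CPM and was not called.

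Tpi1, which interconverts the triose phosphates, had 601, 613, 643, 604 and 660.4 CPM in co-treated, 517, 456, 523, 535 and 540.3 CPM in LPS, 609.9, 598, 488, 519 and 502 CPM in sedanolide, and 448, 496, 582 and 525 CPM in control libraries. Every co-treated library was above every LPS and every control library. Tpi1 was 0.28 (SE 0.09) higher in co-treated against control libraries (edgeR, adjusted p = 0.0466) and 0.28 (SE 0.08) in co-treated against LPS libraries, where it was not called (edgeR, adjusted p = 0.0895). DESeq2, limma-voom and a fit of only the compared groups did call Tpi1 higher in co-treated against LPS libraries. The edgeR call against control was held narrowly. Tpi1 gave 0.21 in bulb-poor libraries (adjusted p = 0.306), and lost the call without any 1 of control replicates 1, 2 and 5, sedanolide replicates 4 and 5, LPS replicates 1, 3, 4 and 5, and co-treated replicates 1 to 5, at 0.22 to 0.30 and adjusted p of 0.0507 to 0.172.

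Gapdh, the oxidising step and a common reference gene, had 182, 171, 188, 183 and 227 CPM in co-treated, 168, 165, 168, 169.5 and 175 CPM in LPS, 186, 169.5, 194, 212 and 164 CPM in sedanolide, and 167, 154, 166 and 159 CPM in control libraries. All co-treated libraries exceeded all control libraries, by 0.24 (SE 0.08), without a call (edgeR, adjusted p = 0.0762). Pgam1, the phosphoglycerate mutase, had 304, 302, 311, 294 and 389 CPM in co-treated, 293, 287, 301, 293 and 281 CPM in LPS, 321, 323, 332, 346 and 291 CPM in sedanolide, and 313, 246, 299.7 and 289 CPM in control libraries. Its change with LPS against control was 0.02 (SE 0.09), and no comparison was called. Rows named as pseudogenes of Gapdh, Pgam1 and Ldha held 0.241%, 1.38% and 0.423% as many counts as these genes. These shares leave out copies described in other words. They also do not measure reads lost because they match several near copies, so these levels stay uncertain. Pgk1, the ATP-making kinase before Pgam1, spanned 286 to 403 CPM and was not called.

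The neuronal enolase Eno2, which led its step at 548 TPM, had 751, 739, 764, 702 and 956 CPM in co-treated, 771, 740.5, 709, 689.6 and 634 CPM in LPS, 779, 784, 879, 837 and 749 CPM in sedanolide, and 871, 668, 836 and 823 CPM in control libraries. Its groups overlapped in every comparison, as did those of Eno1, which spanned 716 to 959 CPM. Pyruvate kinase, which makes pyruvate and ATP, is encoded here by Pkm, which had 1101, 1025, 1109, 1049.6 and 1216 CPM in co-treated, 1016, 883, 1024, 968 and 998 CPM in LPS, 1077, 1031, 1005, 1060.4 and 979.7 CPM in sedanolide, and 941, 931, 1111 and 969 CPM in control libraries. All co-treated libraries were above all LPS libraries, by 0.17 (SE 0.07), and this was not called (edgeR, adjusted p = 0.209).

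At the lactate step the abundant isoform was Ldhb, the heart-type subunit, at 885 TPM against 314 TPM for Ldha over all libraries. Ldhb had 382, 410.0, 391, 389 and 383 CPM in co-treated, 388, 492, 391, 456 and 378 CPM in LPS, 401, 365, 443, 409 and 366 CPM in sedanolide, and 607, 373, 365 and 499 CPM in control libraries. The highest control library, replicate 1, is the library with the most Cdhr1 (445 CPM), and no comparison of Ldhb was called. Ldha, the muscle-type subunit, had 361, 352, 368, 339.8 and 397 CPM in co-treated, 288, 229, 293, 289.7 and 309 CPM in LPS, 362, 360.4, 245, 321 and 343 CPM in sedanolide, and 198, 291, 364 and 289 CPM in control libraries. All co-treated libraries were above all LPS libraries, by 0.37 (SE 0.13), without a call (edgeR, adjusted p = 0.145). Limma-voom and a fit of only the compared groups called Ldha higher there. LPS against control gave -0.02 (SE 0.14). The share of Ldha in the summed TPM was 30.6 ± 1.62% in co-treated, 24.3 ± 3.86% in LPS, 28.1 ± 4.48% in sedanolide and 23.5 ± 8.01% in control libraries (SD).

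The lactate transporters showed a large change. Slc16a1 (MCT1), carried by endothelium, oligodendrocytes and astrocytes, had 117, 114, 117, 134 and 92.3 CPM in co-treated, 191, 77.8, 135, 104 and 109 CPM in LPS, 48, 42.5, 42.8, 41.5 and 39.9 CPM in sedanolide, and 49.5, 54.9, 59.7 and 51.5 CPM in control libraries. No library that received LPS overlapped one that did not. Slc16a1 rose 1.19 (SE 0.18) in LPS against control (edgeR, adjusted p = 9.49e-05) and 1.42 (SE 0.17) in co-treated against sedanolide libraries (edgeR, adjusted p = 9.67e-06). That comparison called 4 member rows higher and none lower in edgeR (0 lower at an unadjusted p below 0.05, 0 by DESeq2 and 1 by limma-voom), Hk2, Hk3, Slc16a1 and Slc16a3, beside 5.09% of all rows called higher and 0.484% lower. Co-treated against LPS gave -0.10 (SE 0.16; edgeR, adjusted p = 0.736), and the LPS libraries spread most, from 77.8 to 191 CPM. All sedanolide libraries were below all control libraries, and that change, -0.33 (SE 0.17), was not called (edgeR, adjusted p = 0.251).

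Divided by the endothelial marker sum, Slc16a1 was 19.2 ± 0.918% in co-treated and 10.2 ± 1.31% in sedanolide libraries (SD), with no overlap (exact permutation p = 0.00794, adjusted 0.0238). In LPS libraries it was 16 ± 5.26% and in control libraries 13.2 ± 3%, and these overlapped (exact permutation p = 0.437). Markers of oligodendrocytes, which also carry MCT1, were not called in any comparison by edgeR (0 of 6), with 4 of them lower at an unadjusted p below 0.05 in co-treated against sedanolide libraries.

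Slc16a3 (MCT4), a lactate exporter of highly glycolytic cells, was the lowest member gene per exon length and had 3.81, 5.06, 6.07, 4.78 and 5.52 CPM in co-treated, 7.76, 6.42, 6.25, 4.54 and 7.61 CPM in LPS, 2.93, 2.64, 3.2, 3.52 and 2.92 CPM in sedanolide, and 2.55, 3.57, 5.31 and 3.17 CPM in control libraries. Co-treated and sedanolide libraries did not overlap, while LPS and control libraries did. The change was 0.84 (SE 0.20) in LPS against control (edgeR, adjusted p = 0.00661) and 0.73 (SE 0.19) in co-treated against sedanolide libraries (edgeR, adjusted p = 0.021). In bulb-poor libraries LPS against control gave 0.78 (adjusted p = 0.067), and co-treated against sedanolide 0.85 (adjusted p = 0.00806). The second call was lost without sedanolide replicate 2 (0.68, adjusted p = 0.0556), sedanolide replicate 5 (0.71, adjusted p = 0.053) or co-treated replicate 3 (0.65, adjusted p = 0.0721).

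Slc16a7 (MCT2), the high-affinity neuronal transporter, had 40, 47.6, 38.9, 39.1 and 30.3 CPM in co-treated, 25.8, 18.1, 33.1, 28.4 and 36.4 CPM in LPS, 56.1, 47.8, 26.4, 36 and 39.8 CPM in sedanolide, and 25, 37.1, 48 and 35.3 CPM in control libraries. Its groups overlapped; LPS against control gave -0.36 (SE 0.22) and co-treated against LPS 0.46 (SE 0.21), and neither was called (edgeR, adjusted p = 0.336 and 0.222). By TPM, Slc16a1 was 85.8 ± 1.48% of the 3 transporters in co-treated and 87.9 ± 2.82% in LPS libraries, and 70.8 ± 4.06% in sedanolide and 76.7 ± 3.44% in control libraries (SD). Slc16a7 was 11 ± 1.3% in co-treated, 7.97 ± 2.16% in LPS, 25 ± 4.67% in sedanolide and 19 ± 2.7% in control libraries.

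The pyruvate dehydrogenase kinases and Hif1a gave no call. Pdk2, which led the 4 kinases at 94.4 TPM, had 85.5, 84.5, 87.1, 83.4 and 107 CPM in co-treated, 90.9, 92.9, 87.4, 76.5 and 85.1 CPM in LPS, 87.6, 89.5, 98.4, 105 and 115 CPM in sedanolide, and 72.8, 89.1, 86.4 and 80.9 CPM in control libraries. Its largest difference was 0.27 (SE 0.10), in sedanolide against control libraries (edgeR, adjusted p = 0.0951). Pdk1, Pdk3 and Pdk4 spanned 37.2 to 76.9, 24.7 to 34.4 and 11.3 to 23.4 CPM. Hif1a, the oxygen-regulated subunit whose protein is controlled mainly by degradation, had 83.3, 90.5, 86.5, 79.3 and 73.2 CPM in co-treated, 79.9, 78.9, 89.6, 96.1 and 92.9 CPM in LPS, 83.2, 89.4, 75.6, 70.4 and 75 CPM in sedanolide, and 93.6, 76.2, 87.4 and 90.9 CPM in control libraries. It differed by 0.01 (SE 0.09) with LPS against control and by -0.08 (SE 0.08) in co-treated against LPS libraries (edgeR, adjusted p = 0.971 and 0.578).

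Over all 32 member rows the median log2 change was 0.08 in co-treated against LPS libraries, beside -0.01 over all rows tested. It was 0.03 in co-treated against sedanolide, beside -0.02, and 0.15 in co-treated against control, beside 0.01. In sedanolide against control it was 0.11, beside -0.01. In the bulb-poor libraries these 4 medians were 0.07, 0.06, 0.10 and 0.06, beside 0.00, 0.01, -0.00 and -0.03 over all rows. The first was 0.04 with a per-library index of olfactory bulb marker genes as a covariate, and the last was 0.06 with offsets for length and GC content and 0.07 with upper-quartile library factors. Comparisons that share a group share its libraries.

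Genes around the pathway were read from lists of their own. Of 16 partners of the lactate transporters and of mitochondrial pyruvate entry, 2 were called higher with LPS against control and none lower: Bsg, the chaperone that brings MCT1 and MCT4 to the membrane, by 0.47 (SE 0.06; edgeR, adjusted p = 1.44e-05), and Slc16a4 by 0.70 (SE 0.13; edgeR, adjusted p = 0.00115). Of 24 other glucose transporters and hexose enzymes tested, 2 were higher: the urate and hexose carrier Slc2a9 by 0.98 (SE 0.17) and Galm, a hexose mutarotase, by 0.40 (SE 0.12). Of 8 pentose phosphate genes, H6pd, its enzyme in the endoplasmic reticulum, was higher by 0.80 (SE 0.15; edgeR, adjusted p = 0.00123). These shares, 12.5%, 8.33% and 12.5%, stand beside the 8.47% of all rows.

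Of 10 glycogen genes, 2 were called higher (20%) and 1 lower (10%) with LPS against control, beside 8.47% and 2.44% of all rows. In co-treated against LPS libraries 1 was lower (10%) and 0 were higher by edgeR (2 at an unadjusted p below 0.05), beside 1.68% and 0.287% of all rows. Pygl, the liver-type phosphorylase, was 0.97 (SE 0.12) higher with LPS against control (edgeR, adjusted p = 9.31e-06) and gave -0.63 (SE 0.11) in co-treated against LPS libraries (edgeR, adjusted p = 0.00498). Its interaction was -0.75 (SE 0.16; edgeR, adjusted p = 0.0418). Pygb rose by 0.32, and Ppp1r3c, which targets phosphatase to glycogen, fell by 0.53 with LPS against control. Of 19 HIF regulators and targets, 2 were higher (10.5%) and 1 was lower (5.26%) with LPS against control. Those higher were Hif3a, an inhibitory HIF subunit, by 1.20 (SE 0.27; edgeR, adjusted p = 0.0051), and Epas1, the endothelial HIF subunit, by 0.44 (SE 0.12; edgeR, adjusted p = 0.0173). In co-treated against LPS libraries 1 of the 19 was higher (5.26%) and 2 were lower (10.5%), beside 0.287% and 1.68% of all rows. Hif3a fell by 50.1% (edgeR, adjusted p = 0.0432). Epas1 gave -0.54 (SE 0.11; edgeR, adjusted p = 0.014), and P4ha1, a collagen prolyl hydroxylase, gave 0.41 (SE 0.06; edgeR, adjusted p = 0.0023). Ddit4, a stress-induced inhibitor of mTORC1, was lower with LPS (-0.79, SE 0.11) and with sedanolide (-0.93, SE 0.11) against control, and its interaction was 1.24 (SE 0.15; edgeR, adjusted p = 0.000492). By the interaction test, 1 of the 19 was called higher (5.26%) and 1 lower (5.26%), beside 0.214% and 0.372% of all rows. The interactions of the 19 ran from -1.91 to 1.24.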

How the data were processed

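Stranded libraries were made from poly(A) RNA, per the labels' protocols. Raw counts per gene were deposited by the authors, in a table whose name credits featureCounts. The submitters' processing notes name fastp, HISAT2, StringTie, RSEM and DESeq2 without versions. The genome build and the strand setting of the counting are not given in the sources used here, so overlapping or antisense genes cannot be told apart. All columns of the table were matched to samples (0 unmatched).

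Testing used edgeR 4.0.16 (R 4.3.3) with TMM factors, the default filter by group (17757 of 57010 rows), robust quasi-likelihood, 1 mean per group over 19 libraries, two-sided. CPM use the TMM-scaled totals. TPM use exon lengths of GENCODE M21, which held 99.6% of the counts. Ratios to marker sums were compared by exact permutation tests over libraries. These tests, and the offsets for length and GC content, were chosen after seeing the data. Alternatives were other filters and factors, DESeq2 1.42.0, limma 3.58.1 (voom), a replicate block, bulb-poor libraries and leaving out each library. The edgeR step was tested on simulated counts.

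The members and all lists were chosen with earlier results of these data known. Values in every library are given for each member called in at least 1 comparison and for the uncalled member of highest TPM at each step; genes of other lists were named where called, at most 4 a list. The labels do not say that replicates are separate animals, so p-values measure the spread between these samples. The lowest chi-square per degree of freedom between libraries of a group was 2.47 over 36 pairs, so none was taken as a duplicate. Depth was 19.08 to 24.32 M counts a library. Control replicate 3 is not analysed here.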

Additional observations from a re-analysis of the deposited data

Results flagged for a closer look

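The interaction of sedanolide and LPS in Slc2a1 was -0.94 on the log2 scale. It is flagged because the co-treated minus LPS and the sedanolide minus control differences were tested against each other and called different. The call was not held in bulb-poor libraries (-0.81, SE 0.26, edgeR, adjusted p = 0.503) or with a replicate block (-0.95, edgeR, adjusted p = 0.101). The SE over all libraries was 0.19. With a per-library index of olfactory bulb marker genes as a covariate, the interaction kept its call. None of the libraries with olfactory bulb transcripts was co-treated.

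Of 128 groups of member values checked for a single far library, 8 held one, where about 1 in 20, or 6.4, is expected by chance. Co-treated replicate 5 gave 5 of them. It was the highest co-treated library for Pfkfb4 (15.6 CPM), Pgam1 (389 CPM), Eno2 (956 CPM) and Pdk2 (107 CPM), and the lowest for Pdk4 (15.4 CPM). LPS replicate 2 gave the other 3, as the lowest LPS library for Aldoa (1127 CPM), Tpi1 (456 CPM) and Ldha (229 CPM). Co-treated replicate 5 had the lowest mitochondrial share of its group, and LPS replicate 2 had 181 CPM of Cdhr1. Their part in these values was not tested.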

How the results depend on the processing

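The member changes called numbered 20. Across 599 recomputed values under 30 other settings, 528 kept the call and direction, 71 lost the call and 0 reversed. Slc2a1 (LPS against control), Hk2, Hk3, Pfkfb3 (LPS or co-treated against control) and Slc16a1 kept every call. The numbers of members called moved as follows. Limma-voom called 10 instead of 6 in LPS against control, 8 instead of 1 in sedanolide against control, 4 instead of 1 in co-treated against LPS, 8 instead of 4 in co-treated against sedanolide, 15 instead of 7 in co-treated against control and 5 instead of 1 in the interaction. Of all 17757 rows, limma-voom called 4528 in LPS against control, where edgeR called 1938. It called 4413 in sedanolide against control (edgeR 943) and 2648 in co-treated against LPS (edgeR 350). DESeq2 called 3 members in sedanolide against control (1860 of all rows) and 2 in co-treated against LPS (904 of all rows). In sedanolide against control, 0 were called with no filter, with only the compared groups fitted, in bulb-poor libraries or with offsets for length and GC content, and 2 with a minimum of 1 CPM in 4 libraries. Those settings called 439, 19, 8, 289 and 1024 of all rows, in that order. In co-treated against LPS, 3 were called with only the compared groups fitted, and 0 in bulb-poor libraries or with an olfactory bulb index as covariate. There the all-row counts were 723, 35 and 140, in that order. Bulb-poor libraries gave 4 in co-treated against control and 0 in the interaction. Fitting only the compared groups gave Slc16a3 an adjusted p of 0.0597 in LPS against control. Leaving out 1 library gave 6 to 8 in LPS against control, 0 to 3 in sedanolide against control, 0 to 1 in co-treated against LPS, 3 to 4 in co-treated against sedanolide, 5 to 10 in co-treated against control and 0 to 1 in the interaction. The cause of these differences was not tested.

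A replicate block gave 0 in sedanolide against control, 0 in co-treated against LPS (Slc2a1 -0.58, adjusted p = 0.0718), 3 in co-treated against sedanolide and 0 in the interaction. Of all rows, the block fit called 95 in sedanolide against control and 145 in co-treated against LPS. Same-numbered libraries share only a number: 5 of 27 pairs correlated above 0.1 (range -0.60 to 0.29), and 1 of 19 libraries matched its own number best.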
